A study of Camelus dromedarius with 30 samples.

Results

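SLC8A1 (ENSCDRG00005018497) encodes the sodium-calcium exchanger NCX1, and it was followed here through the kidney of the dromedary camel as 1 gene of the 22444 in a table of RNA-seq counts. It was chosen by its gene identifier after its level had been seen to be lower in the cortex of dehydrated camels. No p-value is therefore given for SLC8A1 wherever control or dehydrated cortex enters a comparison. Kidney cortex and kidney medulla of 15 male camels aged 4 to 5 years were sequenced, which gave 30 libraries in 6 groups of 5. Control camels were compared with camels kept without water for 20 days (dehydration) and with camels kept without water for 20 days and then given water for 3 days (rehydration). The labels number the camels C1 to C5, D1 to D5 and R1 to R5 in both tissues, so a camel contributed to 1 condition only. Both tissues are whole tissue pieces with many cell types.

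NCX1 sits in the plasma membrane and lets sodium into the cell in exchange for calcium moved out. In the kidney it is best known from the basolateral membrane of the distal convoluted and connecting tubule. There calcium enters the cell from the urine through the channel TRPV5, is carried by the calcium-binding protein calbindin (CALB1), and leaves towards the blood through NCX1 and the calcium pumps of the ATP2B family. The sodium pump keeps up the sodium gradient that drives the exchange. The gene is also expressed in heart, smooth muscle and other excitable cells.

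In the CamDro2 assembly used for the deposited counts, SLC8A1 lay on the minus strand of chromosome 15 from position 29214544 to 29526715. The exons of the Ensembl annotation merged into 12 blocks of 3026 bases in all, spread over 312 kb. The longest block held 1806 bases near the 5′ end and was separated from the remaining 3′ blocks by a gap of 228 kb. Counts come from these exon blocks only, with strand, and 0 other annotated genes overlapped the gene. The nearest gene towards lower coordinates was THUMPD2, at a distance of 268 kb, and the nearest towards higher coordinates was ENSCDRG00005019470, at 1173 kb. In the cortex the log2 fold change of dehydration over control was 0.44 ± 0.15 (SE) for THUMPD2, with an adjusted p of 0.133. It was 0.08 ± 0.26 (SE) for ENSCDRG00005017644, the next gene on that side, with an adjusted p of 0.940. On the other side ENSCDRG00005019651 had 0.69 ± 0.25 (SE) with an adjusted p of 0.140, and ENSCDRG00005019470 did not pass the filter on low counts. None of these neighbours passed the threshold of 0.05 on the adjusted p (edgeR's quasi-likelihood test, Benjamini-Hochberg adjustment over 15376 tested genes).

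The libraries held 12634346 to 20005136 counted read pairs each. SLC8A1 was counted 8 to 1036 times per library, so the lowest medulla values rest on few pairs. Levels are given as CPM (counts scaled to a common library total) after TMM normalisation, and as FPKM, which also divides by exon length, where genes are compared with each other. TMM scaling factors were 0.740 to 0.900 in the 15 cortex libraries and 1.05 to 1.31 in the 15 medulla libraries. Levels are relative to the TMM-scaled total of counted pairs of a library, so these factors enter every comparison of the tissues. In bulk tissue fewer cells of a type and less RNA per cell cannot be told apart.

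SLC8A1 was most abundant in the cortex of control camels, was lower in the cortex of every dehydrated camel, and lay in between after rehydration, whereas its level in the medulla was low in all 3 conditions. In the control cortex SLC8A1 was at 58.9, 75.4, 28.6, 45.3 and 49.1 CPM in camels C1 to C5. In the dehydrated cortex it was at 7.33, 8.27, 11.7, 7.88 and 7.49 CPM in camels D1 to D5. In the rehydrated cortex it was at 40.3, 12.4, 27.5, 71.9 and 20.9 CPM in the libraries numbered R1 to R5. The highest dehydrated library, D3, was below the lowest control library, C3, so the 2 groups did not overlap. The dehydrated libraries were also the most alike, with an SD of 1.80 CPM around a mean of 8.53, against 17.3 around 51.4 in the control group and 23.2 around 34.6 in the rehydrated group (n = 5 each). Among the rehydrated libraries R2 lay just above the dehydrated range, while R4 lay among the highest control libraries.

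The log2 fold change of dehydration over control in the cortex was -2.59 ± 0.47 (SE), a 6.01-fold lower level. This comparison chose the gene, so the value is a description. Among the tested genes, 2.35% were lower in the dehydrated cortex without overlap between the groups, and 1.17% were called lower. SLC8A1 had rank 29 from the lowest log2 fold change. Among genes that had a symbol and reached a mean of 1 CPM, and that were called lower without overlap, it came after THRSP at -2.73 and SLC17A3 at -2.63 and before TNC at -2.55, SCD at -2.31 and NT5E at -2.18 (log2 fold changes).

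Rehydrated cortex was 4.04-fold above dehydrated cortex, with a log2 fold change of 2.01 ± 0.46 (SE), and the 2 groups did not overlap. In this contrast 1.54% of all tested genes were higher without overlap. Against control cortex, rehydrated cortex was at a log2 fold change of -0.57 ± 0.43 (SE), and the groups overlapped over most of their range. It was -1.03 without rehydrated R4 and -0.36 without rehydrated R2 (log2). These values are descriptions too, because each uses a group that chose the gene.

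In the medulla SLC8A1 was at 6.21, 4.77, 1.56, 6.46 and 8.81 CPM in the control camels C1 to C5. It was at 3.86, 8.03, 2.31, 9.39 and 2.06 CPM in the dehydrated camels. In the rehydrated libraries numbered R1 to R5 it was at 4.05, 5.08, 0.484, 4.65 and 6.71 CPM. The 3 medulla groups overlapped over nearly their whole range, and the lowest value, in rehydrated R3, stood for 8 read pairs.

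None of the 3 medulla comparisons of SLC8A1 passed the test. The log2 fold change of dehydration over control was -0.12 ± 0.48 (SE), with an adjusted p of 0.947 (edgeR, 95% confidence interval -1.10 to 0.85), in a comparison where 1.68% of all tested genes were called. For rehydration over control it was -0.39 ± 0.49 (SE), with an adjusted p of 0.796 (edgeR, interval -1.38 to 0.61) and 0.813% of genes called. For rehydration over dehydration it was -0.27 ± 0.48 (SE), with an adjusted p of 0.813 (edgeR, interval -1.26 to 0.72) and 3.67% of genes called. The interval for dehydration over control reaches from a 2.14-fold lower to a 1.81-fold higher level, so medulla differences inside these limits remain possible. The interval is not a limit of detection, and larger differences could also have gone uncalled. The sign of the first and the last of these changes turned when single libraries were left out, to 0.11 without control C5, 0.08 without dehydrated D5 and 0.06 without dehydrated D3 for dehydration over control, and to 0.07 without dehydrated D4 for rehydration over dehydration (log2).

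The difference between the cortex and medulla responses, cortex minus medulla, was -2.47 ± 0.66 (SE, log2) for dehydration over control and -0.18 ± 0.65 (SE, log2) for rehydration over control. Both are descriptions, since the cortex part chose the gene.

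**Figure D1:**
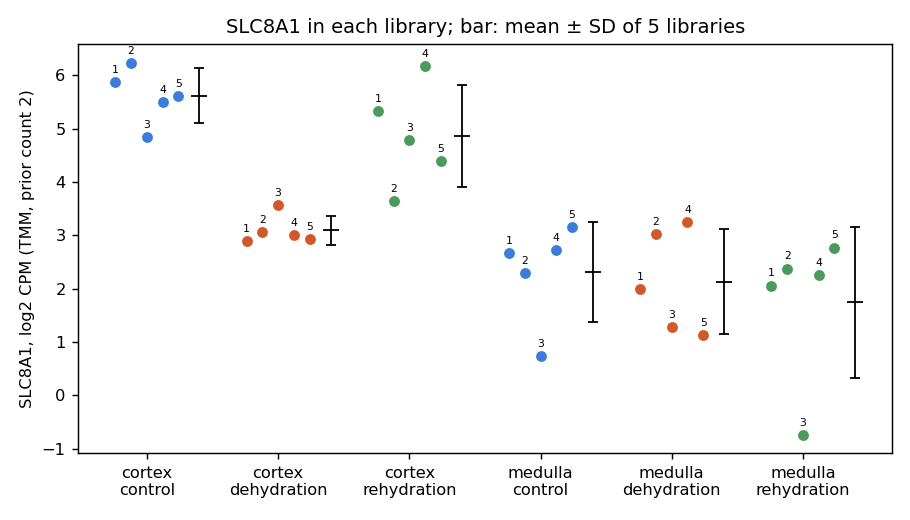
Level of SLC8A1 in each of the 30 libraries (y axis, log2 CPM after TMM with a prior count of 2; x axis, the 6 groups of 5 libraries, points numbered by replicate); the bar beside each group is the mean ± SD. The 5 dehydrated cortex libraries lie together below all control cortex libraries, and the 3 medulla groups overlap.

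The level in the medulla was below that in the cortex in each condition, but by different amounts. In control camels the log2 fold change of medulla over cortex was -3.20 ± 0.48 (SE), a 9.18-fold lower level without overlap, as were 20.3% of all tested genes. In dehydrated camels it was -0.73 ± 0.48 (SE), and the groups overlapped: medulla D4 at 9.39 CPM and D2 at 8.03 CPM lay inside the dehydrated cortex range of 7.33 to 11.7 CPM. Control and dehydrated cortex chose the gene, so neither value carries a test.

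Rehydrated camels gave a tissue comparison that the choice of the gene did not use. There medulla was at 0.484 to 6.71 CPM and cortex at 12.4 to 71.9 CPM, so no medulla library reached the lowest cortex library. SLC8A1 was 8.08-fold lower in the medulla, with a log2 fold change of -3.01 ± 0.48 (SE) and an adjusted p of 6.8e-06 (edgeR). The 2 tissues come from the same 5 camels by the labels, and an exact permutation test that exchanged the tissues within each camel gave a two-sided p of 0.0625, the smallest that 5 camels allow. The library codes give other numbers for the rehydrated camels, so the pairing used in that test is uncertain. The tissues differ in most genes: 61.1% of tested genes were called in this comparison, 28.1% were called lower in the medulla, and 15.6% were lower without overlap, so a call here is common.

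Ordered by group mean, the FPKM of SLC8A1 was 17.0 ± 5.71 (SD, n = 5) in control cortex, 11.4 ± 7.66 in rehydrated cortex, 2.82 ± 0.595 in dehydrated cortex, 1.84 ± 0.881 in control medulla, 1.69 ± 1.12 in dehydrated medulla and 1.39 ± 0.759 in rehydrated medulla. Of the neighbours in this order, only rehydrated and dehydrated cortex did not overlap.

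**Figure D2:**
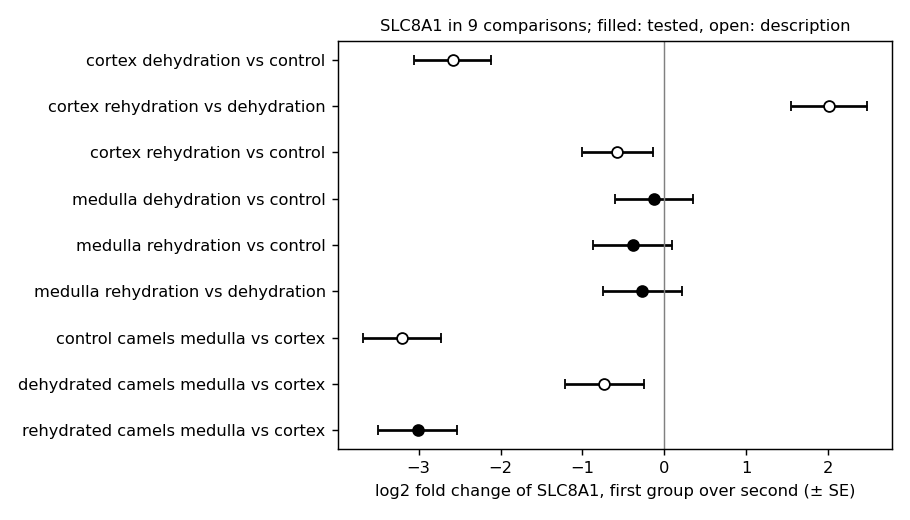
Log2 fold change of SLC8A1 (x axis, first named group over the second, ± SE from the edgeR fit) in 9 comparisons (y axis); filled points were tested and open points are descriptions because control or dehydrated cortex chose the gene. The 2 largest negative tissue differences, -3.20 and -3.01, are in control and rehydrated camels, against -0.73 in dehydrated camels.

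The partner of SLC8A1 in distal calcium transport, CALB1, was also lower on average in dehydrated cortex, with a smaller difference. In the control cortex CALB1 was at 2281, 2146, 660, 1422 and 1416 CPM in camels C1 to C5. In the dehydrated cortex it was at 851, 566, 541, 598 and 490 CPM. In the rehydrated cortex it was at 1825, 617, 1007, 2426 and 839 CPM in R1 to R5. The control library C3, the lowest of its group for SLC8A1, was also the lowest for CALB1 and lay within the dehydrated range, so the CALB1 groups overlapped. The log2 fold change of CALB1 for dehydration over control in the cortex was -1.38 ± 0.53 (SE). No p-value is given for it here, because CALB1 is also one of the genes named below for their correlation with SLC8A1 in these libraries. CALB1 still counts among the calcium genes below, where the reported fit did not call it. In the rehydrated cortex R4 was highest and R2 lowest for both genes. In the dehydrated cortex the orders differed, with D1 lowest for SLC8A1 and highest for CALB1.

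SLC8A1 was lower in dehydrated cortex also when it was set against CALB1. In control cortex 2.58, 3.51, 4.33, 3.19 and 3.46 read pairs of SLC8A1 were counted per 100 pairs of CALB1 in C1 to C5. In dehydrated cortex there were 0.861, 1.46, 2.16, 1.32 and 1.53 per 100 in D1 to D5. In rehydrated cortex there were 2.21, 2.01, 2.73, 2.96 and 2.50 per 100 in R1 to R5. All dehydrated libraries lay below all control libraries, while 1 rehydrated library lay below the highest dehydrated library. This ratio needs no scaling between libraries, and it is a description because the same cortex libraries chose the gene. In the medulla it ranged from 0.675 to 9.79 per 100, with no separation of the conditions.

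Some markers of other cells of the cortex also changed with dehydration. SLC8A1 is in none of the marker lists used here. The lists are only partly covered, because 3653 genes could be given a symbol. Most symbols came from supplementary lists of changed genes or proteins. The share of called markers can therefore exceed that of all tested genes, of which 1.27% rose and 1.17% fell in this comparison. Of 8 markers of the distal convoluted and connecting tubule 4 had a symbol (PVALB, CALB1, WNK1 and KLHL3), and their summed level was 916 to 2585 CPM in control, 670 to 1081 in dehydrated and 792 to 2733 in rehydrated cortex. Most of this sum was CALB1, at 660 to 2281 CPM in control and 490 to 851 CPM in dehydrated cortex, so it largely repeats the CALB1 values. The 4 markers did not move together. PVALB, a calcium-binding protein of the early distal convoluted tubule, rose with dehydration by 2.21 ± 0.38 (SE, log2; adjusted p = 0.0016, edgeR). KLHL3, which controls the sodium-chloride cotransporter of that segment, fell by 0.86 on the log2 scale (SE 0.18, adjusted p = 0.0057, edgeR). WNK1, a kinase of the same control, had -0.56 ± 0.37 (SE, log2; adjusted p = 0.533, edgeR).

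The summed level of 5 of 13 proximal tubule markers (SLC22A8, SLC17A3, SLC13A1, SLC13A3 and GATM) was 2360 to 4307 CPM in control, 844 to 1389 in dehydrated and 2494 to 4264 in rehydrated cortex. SLC17A3, an organic anion transporter, and SLC13A1, a sulphate transporter, fell with dehydration (adjusted p = 0.0045 and 0.019, edgeR), and the other 3 did not pass the test. Beside these calls, 1.17% of all tested genes fell and 1.27% rose. The sum of 3 of 6 endothelial markers (PECAM1, CDH5 and VWF) was 219 to 269, 356 to 423 and 215 to 276 CPM in the same order of groups, and the sum of 3 of 6 thick ascending limb markers (UMOD, CLDN19 and EGF) was 3638 to 5475, 5096 to 8725 and 3560 to 5468 CPM. Of the endothelial markers PECAM1 rose (0.74 ± 0.14, SE, log2; adjusted p = 0.0043, edgeR) and the other 2 did not pass the test. None of the 3 thick ascending limb markers passed it, with UMOD at 0.73 ± 0.23 and EGF at -0.25 ± 0.32 (log2 fold changes, SE).

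The sum of 4 of 9 markers of collecting duct principal cells (AQP2, AQP3, SCNN1A and HSD11B2) was 1061 to 1397 CPM in control, 763 to 1011 in dehydrated and 897 to 1204 in rehydrated cortex. Its members did not move together. AQP3, a basolateral water channel, rose by 2.36 ± 0.55 (SE, log2; adjusted p = 0.017, edgeR), while SCNN1A at -0.59 ± 0.21, HSD11B2 at -0.63 ± 0.24 and AQP2 at 0.22 ± 0.22 did not pass the test (log2 fold changes, SE). The sum of 2 of 6 intercalated cell markers was 549.7 to 694, 479 to 562 and 478 to 764 CPM in the same order of groups, and that of 4 of 9 smooth muscle and fibroblast markers was 240.0 to 374, 264 to 603 and 195 to 306 CPM. No member of these 2 lists passed the test. No marker with a symbol was at 0 in all libraries of a group, and 0 of 5 immune markers had a symbol. The part of these shifts in the level of SLC8A1 was not tested. As a check of the tissue labels, the proximal tubule sum was 54.8 to 949 CPM in the medulla, which overlapped only with the dehydrated cortex. The thick ascending limb sum was 13332 to 24003 CPM in the medulla, above every cortex library. The only podocyte marker with a symbol, SYNPO, was higher in the medulla, against the cortical place of glomeruli.

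The genes of calcium handling that were called in the cortex, in the fit reported here, rose with dehydration. Of 79 other symbols for exchangers, pumps, channels, stores, buffers, their hormonal control and the sodium pump, 29 had a gene with a symbol in the table and all 29 were tested. In the cortex 4 of them rose with dehydration and 0 fell, where 1.27% of all tested genes rose and 1.17% fell. In the medulla 1 rose and 0 fell, where 0.527% of all tested genes rose and 1.16% fell. The median log2 fold change of the 29 genes was -0.08 in the cortex and 0.01 in the medulla, beside 0.00 and 0.01 for all tested genes. Since symbols came largely from lists of changed genes, a share of called genes in this list can exceed that of all genes for that reason alone. With DESeq2, 8 of the 29 were called in the cortex, 5 higher and 3 lower, with SLC8B1 and TMCO1 among the latter, where DESeq2 called 2.06% of its genes higher and 2.62% lower. TMCO1 was also called lower in the edgeR fits with DESeq2's size factors and with the filter on a mean of 1 CPM, which gave 5 calls each. CALB1 was called lower in the edgeR fit of the 15 cortex libraries alone, also with the replicate number as a replicate block. Those libraries also named CALB1 by its correlation.

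The extrusion partners of NCX1 in the cortex did not pass the test in either direction. ATP2B1, a plasma membrane calcium pump, had a log2 fold change of 0.09 ± 0.17 (SE, adjusted p = 0.888, edgeR) and ATP2B4 had -0.13 ± 0.38 (SE, adjusted p = 0.934, edgeR). Compared per length, SLC8A1 was at 9.45 to 24.9 FPKM in control cortex and ATP2B1 at 3.33 to 4.24 FPKM, whereas in dehydrated cortex SLC8A1 was at 2.42 to 3.86 FPKM and ATP2B1 at 3.39 to 4.79 FPKM. By this measure the exchanger was above the pump in every control library, and the ranges met in the dehydrated libraries. The order depends on the annotated exon lengths of the genes. In CPM, without division by length, SLC8A1 at 28.6 to 75.4 overlapped with ATP2B1 at 28.0 to 35.7 in control cortex. In dehydrated cortex SLC8A1 at 7.33 to 11.7 CPM lay below ATP2B1 at 28.6 to 40.4 CPM. The mitochondrial exchanger SLC8B1, the only other sodium-calcium exchanger with a symbol, was at 4.32 to 5.78 FPKM in control and 3.43 to 4.08 FPKM in dehydrated cortex. These ranges did not overlap, as for 2.35% of all tested genes that were lower. The log2 fold change of -0.43 ± 0.14 (SE) did not pass the test (adjusted p = 0.095, edgeR).

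The genes that rose in the cortex serve hormonal control and other calcium routes. CYP24A1, which breaks down active vitamin D, was at 16.6 to 80.0 CPM in control, 209 to 308 CPM in dehydrated and 112 to 909 CPM in rehydrated cortex. It rose with dehydration by 2.70 ± 0.75 (SE, log2; adjusted p = 0.046, edgeR). After rehydration it stayed above every control library, as did 0.364% of all tested genes, although that comparison did not pass the test (log2 fold change 3.43 ± 0.77, SE, adjusted p = 0.075, edgeR). VDR, the vitamin D receptor, was at 73.3 to 136 CPM in control and 169 to 279 CPM in dehydrated cortex. The ranges did not overlap, as for 3.17% of all tested genes that were higher, and the log2 fold change of 1.17 ± 0.52 (SE) did not pass the test (adjusted p = 0.281, edgeR).

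STC1, a secreted hormone of calcium and phosphate balance, was at 1.21 to 6.04 CPM in control and 6.98 to 17.0 CPM in dehydrated cortex and rose by 2.05 ± 0.55 (SE, log2; adjusted p = 0.041, edgeR). ITPR3, a calcium release channel of the endoplasmic reticulum, rose by 1.28 ± 0.24 (SE, log2; adjusted p = 0.0027, edgeR), from 3.49 to 6.80 CPM in control to 8.13 to 16.0 CPM in dehydrated cortex. CACNB3, a regulatory subunit of voltage-gated calcium channels, rose by 1.07 ± 0.22 (SE, log2; adjusted p = 0.0075, edgeR) in the cortex and by 0.85 ± 0.20 (SE, log2; adjusted p = 0.024, edgeR) in the medulla. ITPR3 and CACNB3 kept their calls in the cortex without any single one of the 10 libraries compared. The count of 4 dropped to 2 without any of control C4 or C5 or dehydrated D1, D2, D4 or D5, where both STC1 and CYP24A1 were no longer called. The count was also 2 with limma-voom or with the RNA integrity number as a covariate. In the medulla the CACNB3 call was lost, leaving 0 calls, without any of control C1, C3 or C5 or dehydrated D3 or D4. For 0 of the 29 genes did the response differ between cortex and medulla at an adjusted p under 0.05 (edgeR), and for 6 it did at an unadjusted p under 0.05, beside 7.56% of all tested genes at that unadjusted p.

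**Figure D3:**
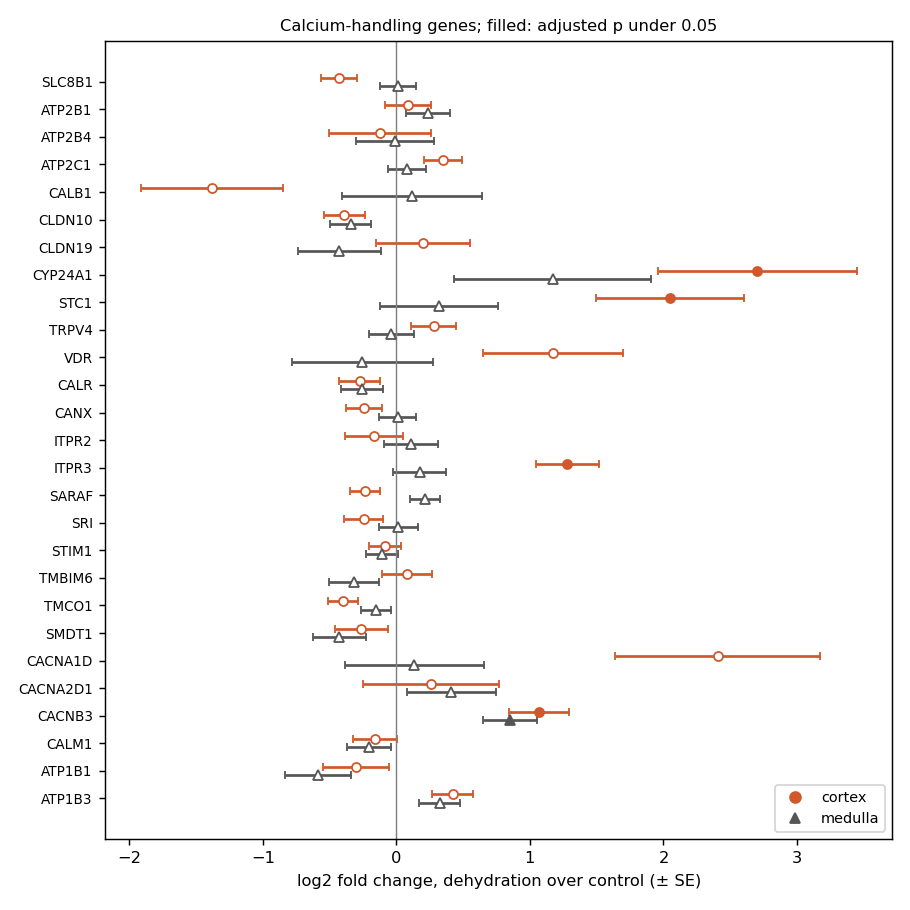
Log2 fold change of dehydration over control (x axis, ± SE) for the named calcium-handling genes (y axis) in cortex (circles) and medulla (triangles); filled symbols have an adjusted p under 0.05. CYP24A1, STC1, ITPR3 and CACNB3 are filled in the cortex and CACNB3 in the medulla, all to the right of 0, while CALB1 has the lowest cortex value at -1.38.

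The genes whose level ran most closely with SLC8A1 over the 15 cortex libraries included enzymes of sterol and fatty acid synthesis, along with CALB1 and others. Likeness was measured by Pearson's r of log2 CPM over 15 libraries of 3 conditions, among 13187 tested genes whose cortex mean reached 1 CPM, of which 3510 had a symbol. The 10 genes with a symbol and the highest r had values of 0.90 to 0.94. They included IDI1 at 0.94, SCD at 0.94, THRSP at 0.94, CYP51A1 at 0.93, ACADM at 0.92, SC5D at 0.91, PNPLA8 at 0.90 and CALB1 at 0.90. Of the 10 highest of all genes, 9 had a symbol. Over all 13187 genes the median r was 0.00, with a range from the 5th to the 95th percentile of -0.66 to 0.62, and 109 genes (0.827%) were above 0.8. The points share the condition means, the scaling and the animals, so these values are given with no test. Spearman's rho of the same 10 genes was 0.85 to 0.91.

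IDI1, CYP51A1 and SC5D are enzymes of cholesterol synthesis. SCD desaturates fatty acids, and THRSP is a regulator of lipid synthesis. ACADM oxidises medium-chain fatty acids, and PNPLA8 is a phospholipase. CALB1 was the only gene of the calcium lists among them. All 10 were named by r, which uses the dehydrated libraries, and 8 of the 10 were lower in dehydrated than in control cortex without overlap, where CALB1 and SC5D overlapped, beside 2.35% of all tested genes. Nothing is read from this count, since the same libraries named the genes.

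IDI1 illustrates the pattern library by library. In control cortex it was at 52.1, 60.7, 29.9, 33.8 and 37.5 CPM in C1 to C5. In dehydrated cortex it was at 14.7, 11.1, 17.8, 12.8 and 13.6 CPM. In rehydrated cortex it was at 74.1, 18.3, 25.3, 58.4 and 19.6 CPM in R1 to R5. As for SLC8A1, the control library C3 was lowest and C2 highest among controls, D3 was highest among dehydrated libraries, and R2 was lowest among rehydrated ones. The rehydrated order differed at the top, where IDI1 was highest in R1 and SLC8A1 in R4.

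The likeness to SLC8A1 rested in good part on the dehydrated libraries. Without them, r over the other 10 cortex libraries was 0.76 to 0.91 for the 10 genes, and CALB1 at 0.91 was the only one still among the 10 highest genes with a symbol. With the mean of each condition removed, r was 0.68 to 0.87, none of the 10 was among the 100 highest, and 4.25% of all genes had an r above 0.8. Within conditions, therefore, many genes ran with SLC8A1 at least as closely as these. Leaving out any single cortex library kept 7 to 10 of the 10 genes among the 10 highest. In the cortex SLC8A1 had an r of -0.35 with the log2 number of counted pairs, 0.14 with the RNA integrity number and 0.18 with the TMM factor.

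**Figure D4:**
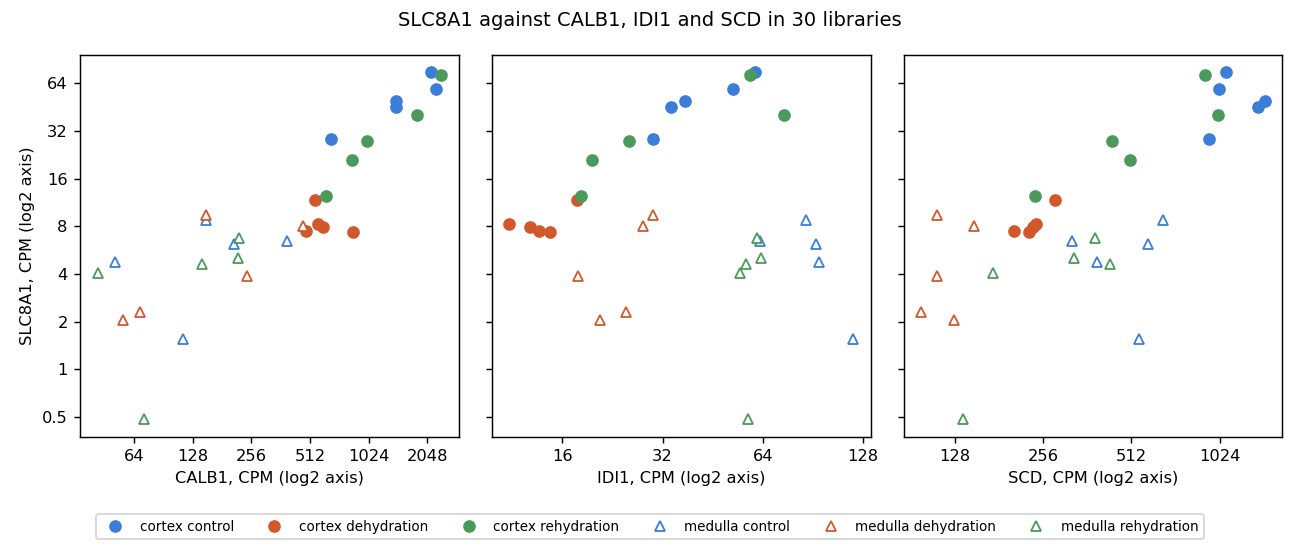
SLC8A1 (y axis, CPM on a log2 axis) against CALB1, IDI1 and SCD (x axes, CPM on log2 axes) in all 30 libraries, with cortex as filled circles and medulla as open triangles coloured by condition. Cortex libraries form a rising band in each panel with the dehydrated ones at its lower end. For IDI1 and SCD the dehydrated medulla libraries lie below the control ones along x, while the SLC8A1 levels of the medulla overlap. Rehydrated medulla overlaps with control medulla for both genes, and with dehydrated medulla for SCD.

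The 10 genes were then looked up in the medulla, in libraries that the correlation did not use. Those libraries come from the same camels by the labels. The genes also had to have a symbol, and symbols came largely from lists of changed genes or proteins. The counts below are therefore not an independent check. There 7 of the 10 genes fell with dehydration and 0 rose, where 1.16% of all tested genes fell. They included IDI1, SCD, THRSP, CYP51A1 and SC5D, and the median log2 fold change of the 10 was -1.84 beside 0.01 for all tested genes. CYP51A1 fell from 91.8 to 181 CPM in control to 26.6 to 35.1 CPM in dehydrated medulla, a log2 fold change of -2.10 ± 0.24 (SE, adjusted p = 4.1e-06, edgeR). IDI1 fell by 1.91 on the log2 scale (SE 0.29, adjusted p = 0.00021, edgeR). With rehydration 6 of the 10 rose again over dehydration, where 2.24% of all tested genes rose.

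SLC8A1 did not show this change in the medulla, with its log2 fold change of -0.12 ± 0.48 (SE), and neither did CALB1 with 0.12 ± 0.52 (SE, adjusted p = 0.954, edgeR), ACADM with -0.58 ± 0.26 (SE, adjusted p = 0.310, edgeR) or PNPLA8 with -0.28 ± 0.17 (SE, adjusted p = 0.517, edgeR). Over the 15 medulla libraries r with SLC8A1 was -0.06 to 0.54 for the 10 genes. It was 0.03 for IDI1, -0.06 for CYP51A1 and 0.54 for each of CALB1, ACADM and THRSP. Over all 13187 genes r in the medulla ranged from -0.72 to 0.77 between the 5th and the 95th percentile. The tissue levels differed as well: in control camels the log2 fold change of medulla over cortex was -3.12 for CALB1 and -3.44 for THRSP, near the -3.20 of SLC8A1, but 1.09 for IDI1 and 1.56 for SC5D.

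The 5 genes with a symbol and the lowest r with SLC8A1 in the cortex were GALNT14 at -0.93, CDC25B at -0.92, NOTCH3 at -0.92, GPIHBP1 at -0.92 and FHOD1 at -0.92. GALNT14 starts O-linked sugar chains on proteins, CDC25B is a phosphatase of the cell cycle, NOTCH3 is a receptor of vascular smooth muscle, GPIHBP1 anchors lipoprotein lipase on capillary endothelium, and FHOD1 organises actin. GALNT14 was at 62.1, 70.5, 94.7, 90.9 and 98.1 CPM in control cortex and at 233, 297, 147, 412 and 317 CPM in dehydrated cortex. Its lowest dehydrated library, D3, was the library with the highest SLC8A1 of that group. In rehydrated cortex GALNT14 was at 89.2, 163, 82.7, 44.7 and 163 CPM in R1 to R5, lowest in R4 where SLC8A1 was highest. In the medulla 1 of these 5 genes, CDC25B, rose with dehydration (log2 fold change 0.93 ± 0.20, SE, adjusted p = 0.0094, edgeR), where 0.527% of all tested genes rose. The other 4 did not pass the test there. The limits given above for the medulla counts hold here too.

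**Figure D5:**
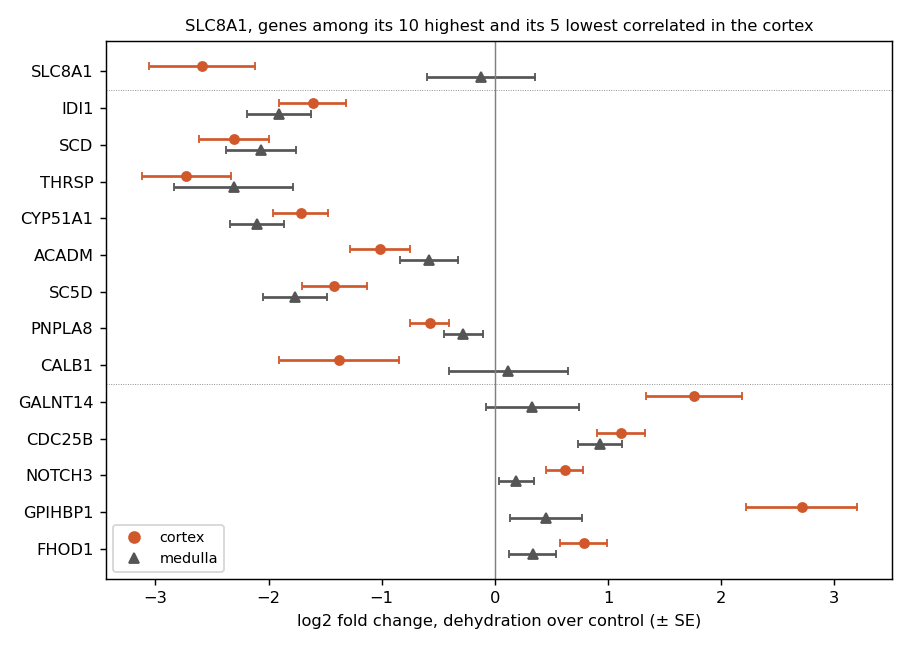
Log2 fold change of dehydration over control (x axis, ± SE) in cortex (circles) and medulla (triangles) for SLC8A1, the named genes among the 10 with the highest correlation with it in the cortex and the 5 with the lowest (y axis, groups parted by dotted lines). The cortex values follow from the choice of the genes; in the medulla IDI1, CYP51A1, SC5D, SCD and THRSP lie left of -1.7 while SLC8A1 and CALB1 lie near 0.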

How the data were processed

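RNA was sequenced from kidney cortex and medulla of 15 camels in 3 conditions (30 libraries, polyA selection). Per the file headers, the authors counted read pairs per gene with featureCounts 1.6.2, with strand, on the Ensembl release 100 annotation of the CamDro2 assembly, and the deposited counts are whole numbers that were not normalised. The study's methods name STAR as the aligner, while the alignment names in the header point to Rsubread, and the labels list DESeq2 1.31.18. Groups and camel numbers came from the labels.

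Counts were analysed in R 4.3.3 with edgeR 4.0.16. Genes passed filterByExpr with a minimum count of 10 and a minimum total of 15, libraries were scaled by TMM, and 15376 genes entered 1 quasi-likelihood fit of 6 groups with the dispersion method of edgeR 4. Calls are genes with a Benjamini-Hochberg adjusted p under 0.05 over all tested genes. Standard errors were derived from the F statistic. Log2 CPM used a prior count of 2. Symbols for 3653 genes came from the study's gene lists (3644) and RefSeq gene identifiers (9). Named genes are SLC8A1, the 10 highest and 5 lowest correlated genes with a symbol and a mean of at least 1 CPM in the cortex, the genes of the calcium and marker lists with a symbol, and the 2 nearest genes on each side. Some of them are counted but not reported here by name. The gene, the members and the lists were chosen with earlier results of these data known, as was the dispersion method. RNA integrity numbers came from the study's supplement. Depth was 12634346 to 20005136 counted pairs, and counting error is large only for the lowest medulla values. Replicates are separate camels. Alternatives were other tools (DESeq2 1.42.0, limma-voom 3.58.1), scalings, filters, covariates, blocks and libraries left out. The camel number paired the tissues by the labels, and residuals of same-numbered tissues correlated by 0.14 (control), 0.09 (dehydrated) and 0.05 (rehydrated) on average. In rehydrated camels the library codes in the labels give other numbers, and the 4 pairs sharing a code number correlated by 0.35 on average.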

Additional observations from a re-analysis of the deposited data

Results flagged for a closer look

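The lowest and the highest library were compared with the rest of their group of 5, in log2 CPM, for SLC8A1 in 6 groups and for the 10 genes most correlated with it in the cortex groups. Of these 36 checks, 3 stood apart, with a gap that took up more of the range than the 95% critical value of Dixon's test allows. Chance gives about 1 group in 20. SLC8A1 in dehydrated cortex was highest in D3, with a gap-to-range ratio of 0.739. This library was at 11.7 CPM and the other 4 at 7.33 to 8.27 CPM, and D3 still lay below every control library. SLC8A1 in rehydrated medulla was lowest in R3, with a gap-to-range ratio of 0.797, at 0.484 CPM or 8 read pairs, beside 4.05 to 6.71 CPM in the other 4. THRSP in control cortex was lowest in C3, with a gap-to-range ratio of 0.723, at 17.0 CPM beside 28.8 to 35.2 CPM. C3 was also the lowest control cortex library for SLC8A1. What sets these libraries apart was not tested.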

How the results depend on the processing

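Of 236 alternative values, 211 kept the direction, the side of the threshold or the size of the reported value and 25 did not. The fit of earlier edgeR versions, the block by library code number and the permutation within camels were chosen after seeing the data. In the cortex the log2 fold change of SLC8A1 for dehydration over control was -2.74 to -2.41 when single libraries were left out and -2.64 to -2.54 under the other alternatives, and for rehydration over control it was -1.03 to -0.36 when single libraries were left out. In rehydrated camels its call between tissues held in every alternative fit, with the camel as a replicate block (-2.93, log2) and with the number in the library code as a replicate block (-3.20, log2), at adjusted p of 2.2e-08 to 0.00066. The exact permutation within camels (-3.12, log2) could not pass the threshold with 5 camels (p = 0.0625). In the medulla its log2 fold change was -0.46 to 0.11 for dehydration over control, -0.62 to -0.13 for rehydration over control and -0.50 to 0.0702 for rehydration over dehydration when single libraries were left out, with the sign turned in the 4 cases given above, and no alternative gave a call (adjusted p 0.645 to 0.996). The count of called calcium genes in the cortex, 4, was 8 with DESeq2, 2 with limma-voom, 2 with the RNA integrity number as covariate and 2 to 3 without single libraries. The count in the medulla, 1, was 2 with DESeq2, 2 with limma-voom, 0 in a fit of the 15 medulla libraries alone, 0 with the replicate number as a replicate block and 0 to 1 without single libraries. The replicate number was only a number between conditions, since deviations of same-numbered libraries correlated by -0.39 to 0.47, and in the cortex the replicate block left the count at 4 but not the call of ITPR3, while limma-voom did not call CACNB3. Of the 10 genes most correlated with SLC8A1, 0 remained among the 10 highest with condition means removed, 1 without the dehydrated libraries and 7 to 10 without single libraries. The causes were not tested. With 5 libraries a group from different camels, 252 arrangements allow no two-sided permutation p under 0.0079, and medulla values of SLC8A1 rest on as few as 8 read pairs.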
